A study of Homo sapiens with 12 samples.

Results

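STAP1 and GRAP2 are adaptor genes that were chosen here for their lower RNA level in MCL cell lines treated with ironomycin, and 8 related genes were described with them: GRAP, GRB2, LAT2, SLA, SLA2, SH2B2, SH3BP2 and DAPP1. These 10 genes were taken by name from a table of 63677 genes, and 10 of 10 passed the filter on low counts, as did 18674 genes in all. Mantle cell lymphoma (MCL) is a B-cell lymphoma. RNA-seq was performed on JEKO1, JVM2 and MAVER1. Each line was sampled as a control and after 48 h with ironomycin, a lysosomal iron-targeting derivative of salinomycin, with ibrutinib, an inhibitor of the kinase BTK, or with both drugs. JEKO1 received 50 nM ironomycin and 0.5 µM ibrutinib, JVM2 received 250 nM and 1.5 µM, and MAVER1 received 250 nM and 6.25 µM. Each line gave 1 library per treatment, so the line was the replicate (n = 3). Line, dose and culture serum varied together and cannot be told apart, and p-values, except in the tests of an effect by line, measure only the spread between these lines.

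Adaptor proteins have no enzymatic activity of their own. They carry an SH2 domain, which binds phosphorylated tyrosine, and often SH3 or PH domains, and thereby assemble kinases, phospholipases and Ras activators at antigen and cytokine receptors. In B cells they act downstream of LYN, SYK and BTK at the B-cell receptor (BCR), and some of them, such as SLA, limit receptor signaling rather than promote it. LAT2 is not itself an SH2 protein: it is a transmembrane scaffold whose phosphorylated tyrosines are bound by GRB2.

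Promoter sequences from RefSeq (GRCh38.p14) were used for 7 of the 10 genes, with 11 start sites in all. Those of the 2 genes chosen for their fall are shown to place 5 short motifs in them. The genes without a promoter used here are LAT2, SLA and SLA2. The 250 bases before each start site are given on the + strand, for STAP1 at chr4:67558477-67558726 and for GRAP2 at chr22:39926354-39926603 (start A) and chr22:39946567-39946816 (start B). Capitals mark matches to any of the 5 motifs on either strand.
STAP1: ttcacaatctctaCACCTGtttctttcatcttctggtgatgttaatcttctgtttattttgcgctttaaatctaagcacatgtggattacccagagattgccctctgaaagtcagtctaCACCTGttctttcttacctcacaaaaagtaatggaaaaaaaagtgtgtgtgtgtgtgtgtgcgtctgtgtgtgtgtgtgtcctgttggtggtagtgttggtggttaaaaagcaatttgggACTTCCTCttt
GRAP2 start A: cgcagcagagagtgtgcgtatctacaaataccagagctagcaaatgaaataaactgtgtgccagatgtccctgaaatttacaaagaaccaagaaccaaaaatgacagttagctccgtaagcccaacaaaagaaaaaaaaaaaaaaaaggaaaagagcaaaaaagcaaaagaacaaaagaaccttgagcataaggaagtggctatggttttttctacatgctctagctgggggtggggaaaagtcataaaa
GRAP2 start B: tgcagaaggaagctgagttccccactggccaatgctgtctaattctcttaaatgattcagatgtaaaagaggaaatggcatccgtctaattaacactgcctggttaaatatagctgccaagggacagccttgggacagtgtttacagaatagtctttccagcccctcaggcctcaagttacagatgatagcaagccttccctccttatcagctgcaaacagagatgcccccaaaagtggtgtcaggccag
In STAP1 the capitals CACCTG, found in 2 places, are the E2A motif CAGGTG read on the opposite strand, and ACTTCCTC, which begins 11 bases before the start site, is the PU.1/ETS motif GAGGAAGT read on the opposite strand. The PU.1/ETS letters were present in 2.17% and the E2A letters in 17.5% of 35116 promoters of this length. Neither GRAP2 window held any of the 5 motifs. The octamer ATGCAAAT (1.63% of promoters), the amino acid response element TGATGCAA (0.772%) and the UPR element TGACGTGG (0.612%) were in none of the 11 windows, while E2A letters were also found for DAPP1, GRAP, GRB2, SH2B2 and SH3BP2. None of these motifs overlaps another in the printed windows, and a match is a description of letters.

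Library totals ran from 35448523 to 38630809 reads. Levels are given as CPM, read counts scaled by TMM to a common library size. The 7 B-cell markers summed to 1262 to 2226 CPM in the 12 libraries. With ironomycin alone this sum went from 2087 to 1540 CPM in JEKO1 and from 1883 to 1262 CPM in MAVER1, and was 1996 and 2002 CPM in JVM2. On top of ibrutinib it went from 2226 to 1503 CPM in JEKO1 and from 1863 to 1343 CPM in MAVER1, and was 2091 and 2060 CPM in JVM2. JVM2 had 0 reads of SOX11 and 322 CPM of CCND1 in the control, against 3178 CPM of CCND1 in JEKO1 and 4252 CPM in MAVER1. GRAP2 is best known from T cells. Of 7 T-cell markers, CD3D was at most 0.452 CPM in any library, and the summed level in controls was 67.9 CPM in JEKO1, most of it CD247 (64.6 CPM), 3.60 CPM in JVM2 and 0.746 CPM in MAVER1. The 4 platelet markers were each under 1 CPM in every library, and the summed myeloid markers reached at most 18.8 CPM. The 5 plasma cell markers summed to 302 CPM in the control and 454 CPM with ironomycin in JEKO1, 650 and 965 CPM in MAVER1, and 1697 and 1584 CPM in JVM2. With ibrutinib and with both drugs these sums were 206 and 412 CPM in JEKO1, 615 and 871 CPM in MAVER1, and 1818 and 1676 CPM in JVM2. The 3 epithelial markers summed to 10.97, 16.7, 12.4 and 24.0 CPM in MAVER1 (control, ironomycin, ibrutinib, both) and to at most 5.04 CPM in the other lines. The share of mitochondrially encoded reads was lower with ironomycin in every line, at 2.05% and 1.27% for control and ironomycin in JEKO1, 2.03% and 1.75% in JVM2, and 1.92% and 1.56% in MAVER1. The part of these shifts in the results was not tested. The samples were cultured cell lines, and a lower level in all cells of a line or in some of them cannot be told apart in bulk RNA.

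Per kilobase of exon (RPKM, gene models of GENCODE 29), GRB2 and LAT2 had the highest median over the lines of the 10 genes in control cells and SLA2 the lowest. GRB2, the ubiquitous link from phosphotyrosine to the Ras activator SOS, was at 39.9, 58.0 and 40.7 RPKM in JEKO1, JVM2 and MAVER1. LAT2 was at 39.0 and 34.9 RPKM in JVM2 and MAVER1 and at 3.78 RPKM in JEKO1. The median over the lines was 20.1 RPKM for SH2B2, 9.88 for DAPP1, 4.42 for STAP1, 2.72 for GRAP, 1.85 for SH3BP2, 1.68 for SLA, 1.38 for GRAP2 and 0.251 for SLA2. Neighbours in this order overlapped over the lines except at both ends: the lowest GRB2 value was above the highest LAT2 value, and the lowest GRAP2 value above the highest SLA2 value.

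**Figure D1:**
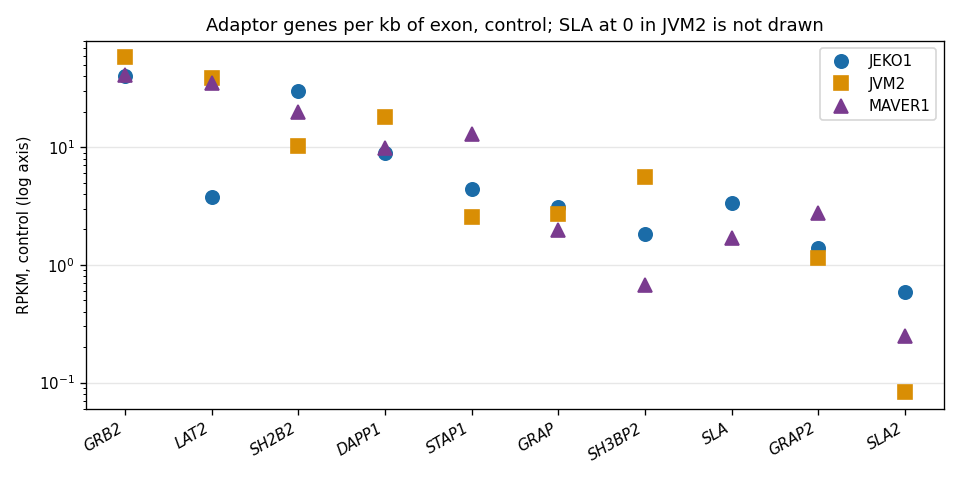
Level of the 10 adaptor genes in control cells as RPKM (log axis), 1 point per cell line, in order of the median. GRB2 stands at 39.9 to 58.0 RPKM, LAT2 is low in JEKO1 alone, and SLA, with 0 reads in JVM2, has no JVM2 point.

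Lines differed in several genes whatever the treatment. LAT2 lay between 11.6 and 17.7 CPM in the 4 JEKO1 libraries, against 177 to 201 CPM in JVM2 and 122 to 228 CPM in MAVER1. SLA had 0 reads in each of the 4 JVM2 libraries, which allows up to 3 counts per library. The control level of SLA was thus at least 297-fold higher in JEKO1 and at least 150-fold higher in MAVER1 than that limit in JVM2. DAPP1 was at 73.8 to 82.1 CPM in JVM2 and at 27.6 to 44.9 CPM in the other two lines, and SH3BP2 at 78.1 to 90.0 CPM in JVM2 and at 9.34 to 36.8 CPM elsewhere. These are ranges over libraries of 1 line each, given without a test.

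STAP1, a B-cell docking protein with PH and SH2 domains found downstream of TEC family kinases, was one of the 2 genes chosen for a lower level with ironomycin. Its control and ironomycin values were 7.31 and 1.79 CPM in JEKO1 (291 and 75 reads), 4.20 and 1.37 CPM in JVM2 (147 and 50 reads), and 21.6 and 7.95 CPM in MAVER1 (781 and 296 reads). With ironomycin the level was thus 24.5%, 32.7% and 36.8% of the control in the same lines. The lines' own spread was wide enough that the control and ironomycin ranges overlapped. The fitted log2 difference was -1.71 (SE 0.31), a description only, because this contrast was used to choose the gene.

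GRAP2 (also called GADS), which joins LAT to the SLP-76 scaffold in T cells, was the other gene so chosen. Its control and ironomycin values were 8.54 and 2.42 CPM in JEKO1, 7.14 and 3.82 CPM in JVM2, and 17.1 and 6.95 CPM in MAVER1, which is 28.3%, 53.5% and 40.8% of the control. The fitted log2 difference was -1.34 (SE 0.21), again a description. The highest ironomycin value (6.95 CPM) was below the lowest control value (7.14 CPM), so the groups did not overlap, narrowly.

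**Figure D2:**
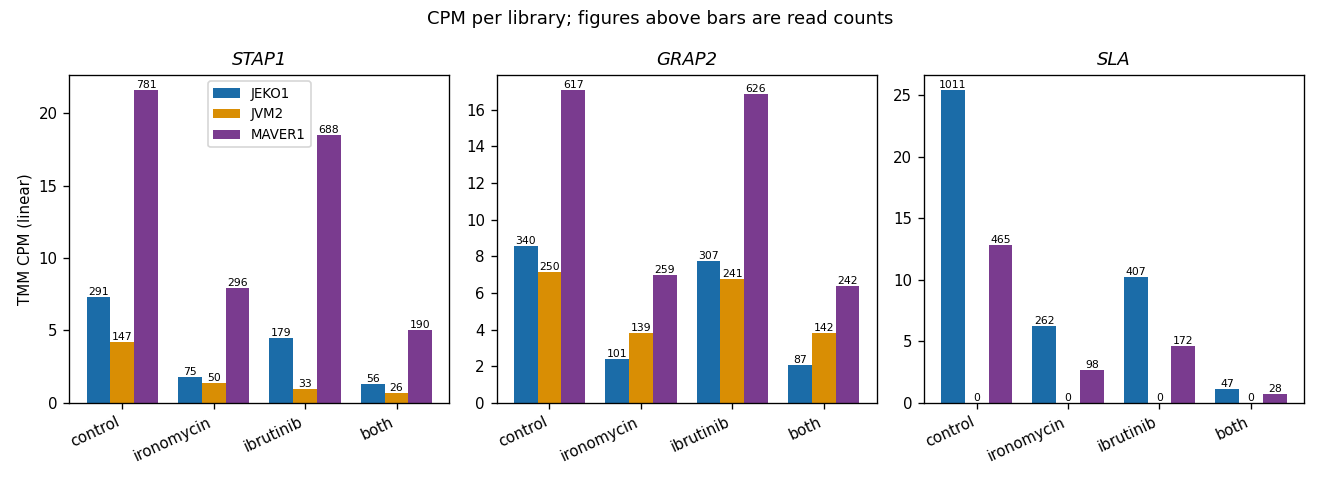
CPM (linear axis from 0) of STAP1, GRAP2 and SLA in the 12 libraries, as 1 bar per line and treatment with read counts written above. In each line STAP1 and GRAP2 are lower with ironomycin than in the control, and with both drugs than with ibrutinib, and SLA has 0 reads in JVM2.

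The effect of ironomycin was also compared in the 6 libraries with ibrutinib, those with both drugs against those with ibrutinib alone. The fit shares its estimate of spread over 12 libraries, and the genes were chosen with earlier results of these data known, so this comparison is not independent evidence for STAP1 and GRAP2. STAP1 and GRAP2 were lower with both drugs. The ibrutinib and combination values of STAP1 were 4.50 and 1.33 CPM in JEKO1, 0.923 and 0.701 CPM in JVM2, and 18.5 and 5.01 CPM in MAVER1. It fell by 1.55 on the log2 scale (SE 0.32, adjusted p = 0.00941, edgeR quasi-likelihood test) and was lower in 3 of 3 lines. In JVM2, with 33 and 26 reads, the log2 ratio was -0.37. Those of GRAP2 were 7.72 and 2.06 CPM in JEKO1, 6.74 and 3.83 CPM in JVM2, and 16.9 and 6.39 CPM in MAVER1. It fell by 1.36 (SE 0.21, adjusted p = 0.00494), and the 2 groups did not overlap.

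A gene was called at an adjusted p under 0.05 and a log2 change of at least 1. In this contrast 3 of the 10 adaptor genes were called, STAP1, GRAP2 and SLA, all lower, against 4.66% of the 18674 genes tested. The median log2 change was -0.40 over the 10 genes and 0.05 over all genes. Since STAP1 and GRAP2 were chosen for a fall with ironomycin, nothing is read from this count or this median. The 3 calls were lost when JEKO1 or MAVER1 was left out. Nearly all calls went with them: 1 of 17875 genes was called without JEKO1 and 6 of 18851 without MAVER1. The 3 calls held without JVM2, where 1439 of 17985 genes (8%) were called. SLA had 0 reads in JVM2, so for SLA the call holding there is no test of leaving out a line. STAP1 was at -1.45 (adjusted p = 0.13) without JEKO1 and at -1.27 (adjusted p = 0.161) without MAVER1, and GRAP2 at -1.13 (adjusted p = 0.0906) and -1.34 (adjusted p = 0.121). SLA was at -2.64 without JEKO1, from MAVER1 alone, and at -3.20 without MAVER1, from JEKO1 alone. With the 6 compared libraries alone in the fit, STAP1 was no longer called (adjusted p = 0.0519), where 161 of 16149 genes were. Without the line as a block 0 of the 10 genes were called, and 0 of all 18674.

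**Figure D3:**
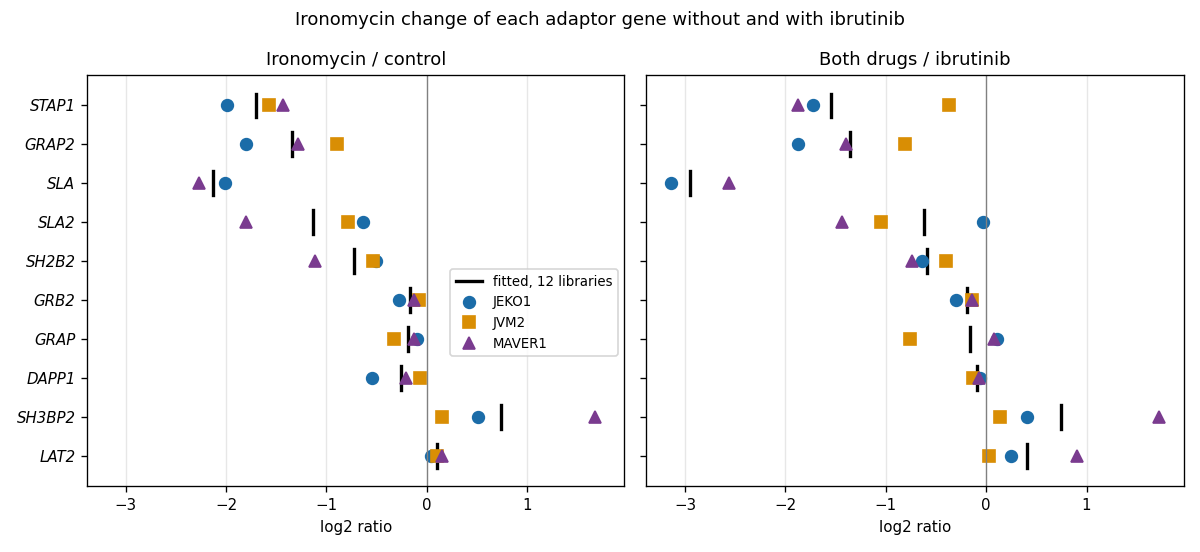
Log2 ratio for ironomycin against control (left) and both drugs against ibrutinib (right), 1 point per line, with the fitted change as a black bar. In the right panel STAP1 and GRAP2 are below 0 in 3 of 3 lines, the JVM2 point of STAP1 is close to 0, and SLA has no JVM2 point because it had 0 reads there.

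SLA and SLA2 encode Src-like adaptors that, with the ubiquitin ligase CBL, promote loss of antigen receptors from the cell surface. SLA in JEKO1 was at 25.4 CPM in the control and 6.27 CPM after ironomycin (1011 and 262 reads), and at 10.2 CPM after ibrutinib and 1.11 CPM after the combination (407 and 47 reads). In MAVER1 the corresponding levels were 12.9, 2.63, 4.63 and 0.739 CPM (465, 98, 172 and 28 reads). Each drug alone left a lower level than the control in both lines, and the combination left 4.38% of the control in JEKO1 and 5.75% in MAVER1. SLA carries information from these 2 lines only.

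With ironomycin alone SLA fell by 2.14 on the log2 scale (SE 0.20, adjusted p = 0.0115, edgeR). Together with STAP1 and GRAP2 it was among 3 of 10 called in that contrast, where 0.214% of genes were called. Since STAP1 and GRAP2 were chosen on it, nothing is read from that count. Without JEKO1 SLA was at -2.28, from MAVER1 alone, and without MAVER1 at -2.02, from JEKO1 alone. Its call was lost in both fits, which called 3 and 1 genes in all. For SLA these fits hold no spread between lines. On top of ibrutinib SLA fell by 2.95 (SE 0.23, adjusted p = 0.00224). With both drugs against control it fell by 4.33 (SE 0.24, adjusted p = 0.000796), a comparison that shares its control libraries with ironomycin alone.

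With ibrutinib alone SLA was at -1.38 in log2 terms (SE 0.20) and did not pass in edgeR (adjusted p = 0.326, unadjusted p = 0.000125), whereas it was called by DESeq2. No gene was called in this contrast by edgeR (0% of 18674), with 680 at an unadjusted p under 0.05, and 11 were called by DESeq2. Of the 10 adaptor genes, 0 were called by edgeR, 3 were at an unadjusted p under 0.05 (SLA, STAP1 and SLA2) and 1 was called by DESeq2. STAP1 was at -0.85 (SE 0.29, adjusted p = 1), and its lines ranged from -2.12 in JVM2 through -0.69 in JEKO1 to -0.22 in MAVER1. This spread between lines did not pass the test of the ibrutinib effect by line (adjusted p = 1, edgeR). In that test 0% of genes were called by edgeR, with 466 at an unadjusted p under 0.05 and 45 called by DESeq2, and of the adaptor genes 0 were reached by any of these.

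Adding ibrutinib to ironomycin left SLA at -2.20 (SE 0.23, adjusted p = 0.0592, edgeR), short of the threshold, while DESeq2 called it. In this contrast 0% of genes were called by edgeR (1970 at an unadjusted p under 0.05, and 23 called by DESeq2), and SLA was the 1 adaptor gene of 10 at an unadjusted p under 0.05. Set against the 2 single-drug log2 changes added together, the combination differed by -0.81 for SLA (SE 0.30, adjusted p = 1). For this interaction too 0% of genes were called by edgeR and 0 by DESeq2, with 367 at an unadjusted p under 0.05, SLA among them as 1 of the 10.

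SLA2 was near the lower end of detection. It had 65, 43, 28 and 29 reads in JEKO1 (control, ironomycin, ibrutinib, both), 8, 4, 8 and 3 in JVM2, and 25, 6, 6 and 1 in MAVER1. With both drugs against control it fell by 1.87 (SE 0.48, adjusted p = 0.0165), and in that contrast 4 of the 10 genes (STAP1, GRAP2, SLA and SLA2) were called against 6.29% of all genes. STAP1 and GRAP2 were at -2.39 and -1.44 there and share the control libraries with the contrast that chose them, so nothing is read from that count. The calls of STAP1, GRAP2 and SLA were lost without JEKO1, at -2.36, -1.17 and -4.10, and without MAVER1, at -2.53, -1.46 and -4.51. These fits called 30 and 22 genes in all, and their SLA values come from MAVER1 alone and from JEKO1 alone. SLA2 was not called without MAVER1 (-1.28) and had too few reads to be tested without JEKO1. SLA2 shares 240 exon bases with RAB5IF on the opposite strand, which had up to 1706 reads against 1 to 65 of SLA2, and the way reads were assigned by strand is not given in the sources used here.

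Of the other members of the GRB2 family, GRB2 itself was little altered. It was at 188, 155, 165 and 133 CPM in JEKO1, 273, 258, 264 and 239 CPM in JVM2, and 192, 175, 178 and 161 CPM in MAVER1, in the order control, ironomycin, ibrutinib, both. Within each line the control was the highest library and that with both drugs the lowest. The log2 difference with both drugs against control was -0.31 (SE 0.08, adjusted p = 0.0149), under the fold required for a call. GRAP, a closely related adaptor of blood cells, was at 5.04 to 10.7 CPM, and with ironomycin at -0.19 (SE 0.18, adjusted p = 0.569). It shares 1472 exon bases with SLC5A10 on the opposite strand, which had at most 44 reads. Its near-identical copy GRAPL had 83 to 311 reads, and reads may have been split between them. Summing the 2 genes, a step chosen after seeing the data, gave -0.14.

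SH2B2 (APS), which couples insulin and cytokine receptors to CBL and JAK2, was lower with ironomycin in 3 of 3 lines. Its control and ironomycin values were 71.7 and 50.4 CPM in JEKO1, 24.5 and 16.9 CPM in JVM2, and 47.8 and 22.1 CPM in MAVER1. With ironomycin it was at -0.73 (SE 0.13, adjusted p = 0.0394) and on top of ibrutinib at -0.59 (SE 0.13, adjusted p = 0.0106). Both are under the fold required for a call, though past the threshold on p, as were 109 and 4359 of all 18674 genes. In these contrasts the adjusted p (edgeR) was 0.278 and 0.134 without JEKO1, and 0.425 and 0.116 without MAVER1. It was 0.0235 and 0.011 without JVM2, and 0.101 and 0.0511 with only the compared libraries in the fit. Ibrutinib alone left SH2B2 at 73.7, 25.2 and 38.5 CPM in JEKO1, JVM2 and MAVER1 (log2 difference -0.09, SE 0.13).

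SH3BP2 is a SYK-binding adaptor whose protein level is set by tankyrase, and its RNA was higher with ironomycin in MAVER1. There it was at 9.34 CPM in the control and 29.9 CPM after ironomycin, and at 9.62 CPM after ibrutinib and 31.9 CPM after the combination. The corresponding values were 25.8, 36.8, 20.9 and 27.6 CPM in JEKO1, and 78.1, 86.9, 81.8 and 90.0 CPM in JVM2. Over all lines the ironomycin difference was 0.74 (SE 0.31, adjusted p = 0.193). The difference of the ironomycin effect between lines passed for SH3BP2 (adjusted p = 0.00211, edgeR), where 9.38% of genes passed. Each line has 1 library per treatment, so in this test the pairs with and without ibrutinib of the same line stand as the only repeats of the ironomycin effect, and its p does not measure the spread between lines. The log2 ratios to control were 0.51, 0.16 and 1.67 in JEKO1, JVM2 and MAVER1, and those of both drugs to ibrutinib were 0.40, 0.14 and 1.73. GRAP2 also met the threshold of this test, but it was chosen on the same contrast. Leaving MAVER1 out ended the call for SH3BP2, in a fit where 1.38% of genes passed.

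**Figure D4:**
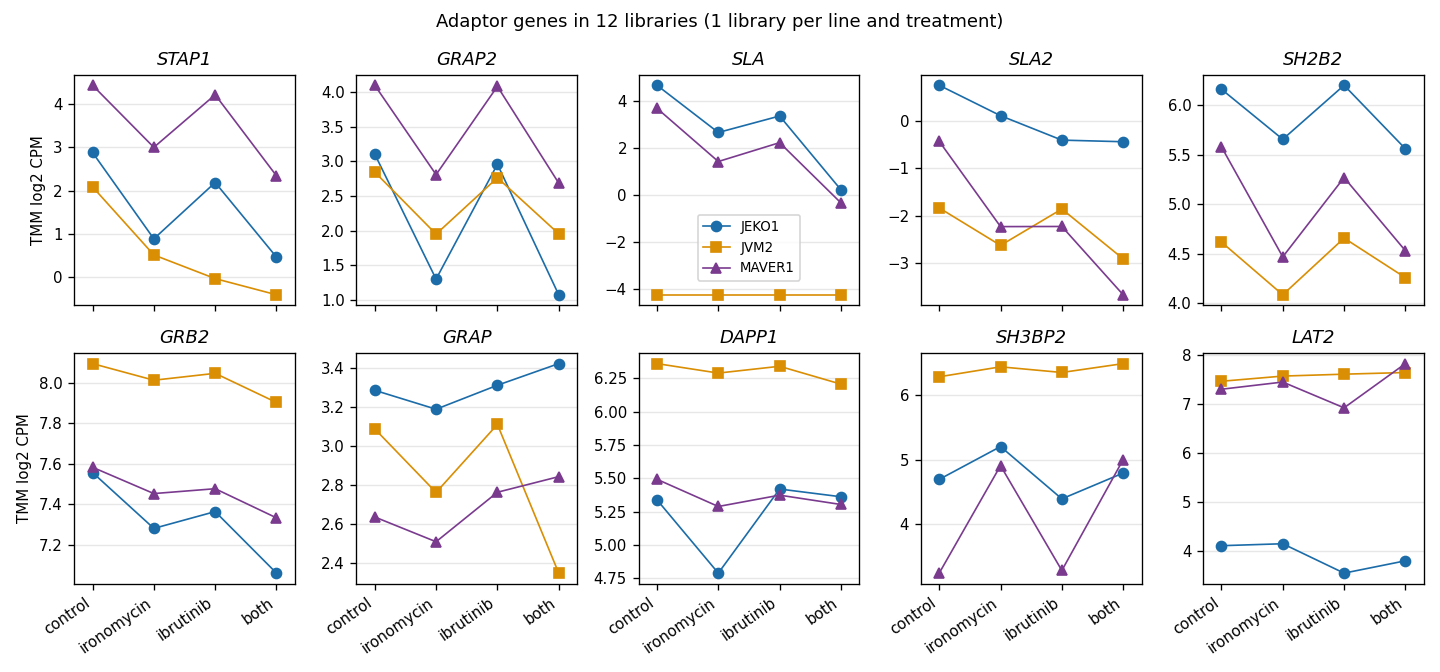
TMM log2 CPM (prior count 2) of the 10 adaptor genes in the 12 libraries, 1 line of points per cell line and 4 treatments along the x axis, with a separate y scale in each panel. SH3BP2 is higher with ironomycin mainly in MAVER1, and SLA in JVM2 sits at the level that 0 reads give.

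LAT2 and DAPP1 showed no called change. LAT2 was at 158, 175, 122 and 228 CPM in MAVER1 in that order of treatments, and on top of ibrutinib its log2 difference was 0.40 (SE 0.17, adjusted p = 0.111). DAPP1 (Bam32), a B-cell adaptor that is drawn to the membrane by PI3-kinase lipids, went from 40.4 to 27.6 CPM with ironomycin in JEKO1. In MAVER1 it went from 44.9 to 39.0 CPM and in JVM2 from 82.1 to 78.2 CPM. The fitted difference was -0.26 (SE 0.12, adjusted p = 0.225).

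Partners and neighbours of the adaptors were read from 4 lists, written with earlier results of these data known. Of 94 genes tested, 0 were called with ironomycin against control by edgeR, although 33 were at an unadjusted p under 0.05 and DESeq2 called 3 (CD22, GAPT and TEC). With both drugs against ibrutinib, 4 of the 94 were called, where 4.66% of all genes were, so the count says nothing particular to the lists. Among 31 tested partners of the adaptors, 16 were higher and 15 lower, and GAB2, a scaffold that recruits SHP2 and binds GRB2, rose by 1.78 on the log2 scale (adjusted p = 0.0173, lines 2.20, 0.43 and 2.48 in JEKO1, JVM2 and MAVER1). Among 16 kinases, 8 were higher and 8 lower. Of 30 other adaptors, 11 were higher and 19 lower, and GAPT, a transmembrane protein that binds GRB2, fell by 1.72 (adjusted p = 0.00685, lines -1.96, 0.23 and -1.62 in JEKO1, JVM2 and MAVER1). In the BCR and its signalosome, 7 were higher and 16 lower of 23. PAG1, which anchors the inhibitory kinase CSK, rose by 1.15 (adjusted p = 0.0134, lines 1.28, 0.11 and 1.82 in JEKO1, JVM2 and MAVER1). GAPT was at 1 to 612 reads.

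With both drugs against control 8 of the 94 were called, against 6.29% of all genes. GAB2 rose by 1.90 (lines 2.7, 0.2 and 2.7 in JEKO1, JVM2 and MAVER1). PAG1 rose by 1.03 (lines 1.42, 0.09 and 1.28) and was not called by DESeq2. LCK fell by 1.03 (lines -0.70, -1.88 and -0.58 in that order), SH2D2A (a T-cell adaptor also called TSAd) by 1.92 and HSH2D by 1.06. GAPT fell by 2.45 but was higher in JVM2 (log2 ratio 0.55). The inhibitory Fc receptor FCGR2B fell by 1.13, mostly in MAVER1 (lines -0.37, -0.44 and -2.74). The phosphatase PTPN6 (SHP1), a negative regulator of the BCR, fell by 2.54 (lines -4.58, -0.94 and -2.45). The median log2 change was -0.43 in the BCR list, -0.18 in the other adaptors, -0.08 in the kinases and 0.10 in the partners. That of all genes was 0.05. The lists were written with earlier results known, so nothing is read from these medians. With ibrutinib against control and with both drugs against ironomycin 0 of the 94 were called by edgeR, with 15 and 17 at an unadjusted p under 0.05, and DESeq2 called 1 in each (SH2D2A).

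The genes whose pattern was most like that of STAP1 were sought among 11384 genes by Pearson correlation of log2 CPM over the 12 libraries, after subtracting the mean of each line. They were PTPRC, which encodes the phosphatase CD45 (0.979), LBH (0.958), C12orf75 (0.948), UBAP1 (0.947) and UBE2R2 (0.946), and the most opposite were MCM3AP-AS1 (-0.982), AUTS2 (-0.968) and TRIM2 (-0.962). For GRAP2 they were PLEKHA2 (0.990), TMEM156 (0.986), DDX39A (0.985), C11orf58 (0.984) and HNRNPK (0.983), with CCDC18-AS1 (-0.985), DDIT3 (-0.982) and ATP6AP1 (-0.981) opposite. These points share lines and treatments, so high values are common, and the correlations are a description. By Spearman correlation 1 of the 5 likeness genes was shared for STAP1 (PTPRC) and 0 of 5 for GRAP2.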

How the data were processed

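Polyadenylated RNA of 3 MCL cell lines under 4 treatments was sequenced paired-end on DNBSEQ. A table of raw read counts by Ensembl gene, not normalized, was deposited. The submitters' processing notes name STAR, DESeq2 and GRCh37; the counter and its strand setting are not given in the sources used here. Of 63677 genes, 52181 were named; no column was left unused. The members and lists were chosen with earlier results of these data known.

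After filterByExpr and TMM scaling, differences were tested by the quasi-likelihood method of edgeR 4.0.16 (R 4.3.3) with terms for treatment and cell line, all 12 libraries being fitted. P-values were adjusted by Benjamini-Hochberg over 18674 genes. A call needed an adjusted p under 0.05 and at least 1 on the log2 scale in either direction. In the test of a drug's effect by line, 2 coefficients were tested on p alone. DESeq2 1.42.0 was an alternative. Other alternatives were DESeq2 size factors, library totals, no filter, at least 1 CPM in 3 libraries, no fold minimum, no replicate block, the compared libraries only, and each line left out. The line was the block, since the 4 libraries of a line share that line. Their residuals from the treatment means correlated at 0.926 to 0.976 (18 pairs), against -0.705 to -0.127 between lines (48 pairs). Residuals of a treatment cancel out over its 3 lines, so negative values between lines are largely built in and nothing is read from them. In simulated data for both drugs against ibrutinib (18430 genes), genes were counted as recovered at an adjusted p under 0.05, without the fold minimum. Of 100 genes given a log2 change of 1, the same in all lines, 65 were recovered, and of 100 given a change of 2, 95. Recovery in this contrast of changes that differ between lines was not tested, nor was recovery with the fold minimum of a call. For the test of the ironomycin effect by line, changes of 1 and 2 were put in MAVER1 alone. Of 100 genes each, 35 and 69 were recovered. CPM used TMM; log2 CPM used a prior count of 2. RPKM divided CPM by union exon length. Fixed named genes were the 10 adaptors, the 5 most and 3 least correlated genes for STAP1 and GRAP2 (mean of at least 1 log2 CPM), and up to 5 called genes per list, of which 1 is not reported here. Figures were drawn with matplotlib 3.10.9.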

Additional observations from a re-analysis of the deposited data

Results flagged for a closer look

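SH3BP2 was noted because the effect of ironomycin on it differed between cell lines in a test of that difference (adjusted p = 0.00211, edgeR, 2 coefficients). In that test 9.38% of all genes passed, so such a difference was common. The only repeats within a line were its pairs with and without ibrutinib, and SH3BP2 was not called without MAVER1. The log2 ratios to control were 1.67 in MAVER1, 0.51 in JEKO1 and 0.16 in JVM2, and against ibrutinib they were 1.73, 0.40 and 0.14. The dose of ironomycin was 250 nM in MAVER1 and JVM2 and 50 nM in JEKO1, so dose and line cannot be told apart for JEKO1.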

How the results depend on the processing

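The numbers of adaptor genes called were 3 with ironomycin against control (0.214% of all genes), 3 with both drugs against ibrutinib (4.66%) and 4 with both drugs against control (6.29%). They were 2 for the ironomycin effect by line (9.38%) and 0 in the other comparisons (0%). STAP1 and GRAP2 were chosen on the ironomycin effect, so nothing is read from these counts. With no replicate block the first 3 of these became 0, 0 and 0, in fits that called 0 of 18674 genes. With only the compared libraries in the fit, they became 0 for ironomycin against control and 2 for both drugs against control. These fits called 2 and 5 genes in all. Leaving out 1 line gave 0 to 3, 0 to 3 and 0 to 4, and 0 to 1 for the ironomycin effect by line. In the first 3 comparisons the fits without JEKO1 called 3, 1 and 30 genes in all, and those without MAVER1 1, 6 and 22. For ibrutinib against control, DESeq2, no filter and only the compared libraries each gave 1, and so did all of these for both drugs against ironomycin, where leaving out 1 line gave 0 to 1. The adaptor gene was SLA each time. In that order these fits called 11, 10 and 12 genes in all for ibrutinib against control, and 23, 24 and 33 for both drugs against ironomycin. Without JVM2, which had 0 reads of SLA, 7 genes were called for both drugs against ironomycin. The cause was not tested. Of the counts of adaptor genes over all alternatives, 60 were within 1.5 times the value reported and 21 were not.

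For single genes, 17 log2 changes reversed sign, none of them called. With library totals in place of TMM, which moved the median of all genes to 0.15 with both drugs against ibrutinib and 0.18 against control, DAPP1 was at 0.019 and 0.022 in these, GRAP at 0.021 against control, and DAPP1 at 0.003 with ibrutinib against control. With no replicate block SH2B2 was at -0.002 for both drugs against ironomycin. Leaving out 1 line at a time, GRAP ran from -0.316 to 0.064 for both drugs against ibrutinib and from -0.271 to 0.138 against control, where LAT2 ran from -0.063 to 0.362. For ibrutinib against control the ranges were -0.068 to 0.032 for DAPP1, -0.174 to 0.058 for SH3BP2 and -0.151 to 0.040 for SH2B2. For both drugs against ironomycin they were -0.036 to 0.277 for DAPP1, -0.191 to 0.078 for SH3BP2, -0.034 to 0.121 for SH2B2, -0.053 to 0.275 for GRAP and -0.132 to 0.236 for LAT2. Over 10 alternatives in both drugs against ibrutinib, STAP1 ranged from -1.86 to -1.27 and GRAP2 from -1.66 to -1.13. A minimum of 1 CPM in 3 libraries removed SLA2. With 3 lines and 1 library each, a change in 1 line has no replicate of its own.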
